A study of Mus musculus with 4 samples.

Results

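The DLX homeobox family comprises 6 mouse genes, Dlx1 to Dlx6, and all 6 were taken by symbol from the 55487 genes of the count table. The samples were pieces of the calvaria, the roof of the skull, taken from mouse embryos at E14.5 and sequenced as poly(A) RNA. The frontal bone gave 2 libraries. The parietal bone together with the interparietal bone gave another 2, called posterior libraries in what follows. The labels name no genotype, strain, sex or treatment and do not state whether replicate libraries are different embryos or how many were pooled, so the p-values describe the spread among these libraries only, and that spread may be technical. The study concerns vesicles that carry citrate and their use in bone repair. Levels are given as CPM, a count divided by the size of its library, with library sizes scaled by edgeR's TMM method, and all differences are frontal minus posterior.

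DLX proteins are transcription factors that bind DNA through a homeodomain, and the mammalian genes lie as 3 neighbouring pairs in which the members point toward each other and share enhancers. In the pharyngeal arches nested DLX expression gives the upper and lower jaw their identities, with Dlx5 and Dlx6 acting downstream of endothelin in the lower jaw, and in skull bones Dlx5 and Dlx3 are known as activators of osteoblast genes. In the brain, Dlx1, Dlx2, Dlx5 and Dlx6 mark the ventral forebrain, where they drive the formation of GABAergic neurons, while Dlx3 also acts in epidermis, hair and placenta.

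The coding sequence around the DNA-contacting helix is shown because the homeobox defines the family, and stretches that members share bear on whether their reads can be told apart. Below are the last 60 bases of the homeobox of each gene, 5′ to 3′ on its coding strand, from the GENCODE M21 transcripts of build GRCm38, with capitals at the positions where the 6 genes do not all carry the same base.
Dlx1: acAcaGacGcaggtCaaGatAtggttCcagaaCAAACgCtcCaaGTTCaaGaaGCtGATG
Dlx2: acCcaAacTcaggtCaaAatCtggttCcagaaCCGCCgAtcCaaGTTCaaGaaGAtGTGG
Dlx3: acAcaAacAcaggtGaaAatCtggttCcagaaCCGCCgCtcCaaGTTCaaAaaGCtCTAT
Dlx4: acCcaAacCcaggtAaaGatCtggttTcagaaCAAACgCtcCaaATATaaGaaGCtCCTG
Dlx5: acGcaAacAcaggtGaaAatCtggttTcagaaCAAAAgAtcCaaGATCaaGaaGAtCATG
Dlx6: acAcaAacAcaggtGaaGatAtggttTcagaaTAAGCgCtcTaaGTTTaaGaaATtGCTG
The 6 genes shared 35 of these 60 bases. In every member an intron splits the printed stretch. Over the whole homeobox of 180 bases, the identity of neighbouring genes was 71.7% to 73.9%, that of genes with the same position in their pairs (Dlx1, Dlx4 and Dlx6, or Dlx2, Dlx3 and Dlx5) was 71.7% to 81.7%, and Dlx2 and Dlx3 were the most alike. The longest stretch that any of the 15 combinations of members shared without a mismatch, over all their annotated transcripts, was 23 bases.

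The annotation placed Dlx1 on chromosome 2 at 71528113 to 71533981 (plus strand) and Dlx2 at 71543408 to 71546754 (minus strand), 9426 bases apart. Dlx5 lay on chromosome 6 at 6877805 to 6882085 (minus strand) and Dlx6 at 6863334 to 6868568 (plus strand), 9236 bases apart. Dlx3 lay on chromosome 11 at 95120119 to 95125296 (plus strand) and Dlx4 at 95140447 to 95146263 (minus strand), 15150 bases apart. An annotated antisense transcript overlaps 1 gene of each pair, as the map of the 3 loci shows. Exons of Dlx1as covered 6.21% of the exon bases of Dlx1, those of Dlx6os2 4.38% of Dlx6 and those of Dlx4os 2.42% of Dlx4, while Dlx6os1 shared no exon base with Dlx6. The strand setting of the counting is not given in the sources used here, so reads in the shared bases cannot be assigned with certainty.

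**Figure D1:**
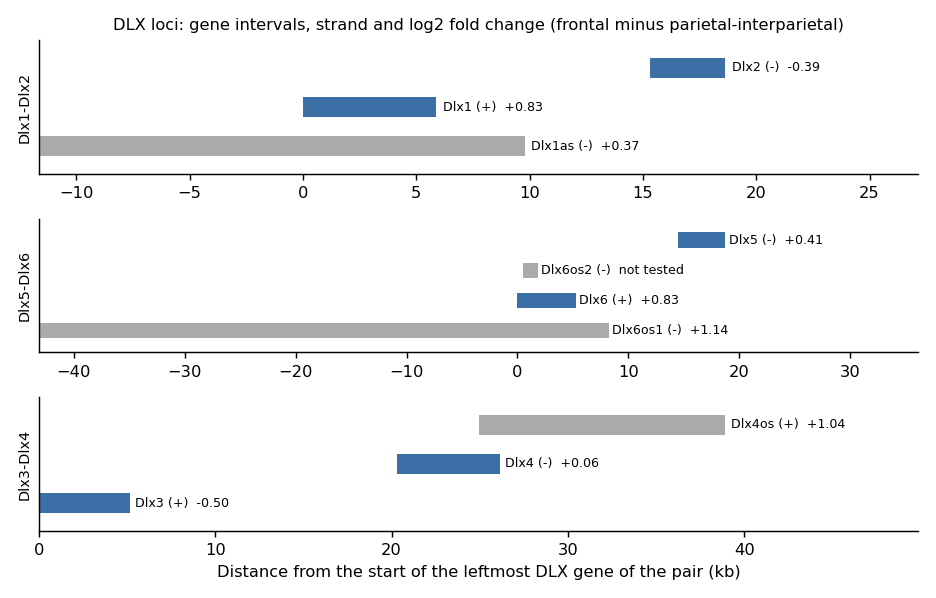
Gene intervals at the 3 DLX loci, one panel per pair, against the distance in kb from the start of the leftmost DLX gene of that pair (each panel has its own scale). Blue bars are DLX genes, grey bars antisense transcripts, and the label gives the strand and the log2 fold change. Dlx6os1 had the largest value of the 3 loci, 1.14, and Dlx3 the lowest, −0.50.

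The libraries held 24069177 to 35555013 counts. Among values of 1 to 20 counts, 68.3% to 74.4% were even. All 6 members passed the filter on low counts, and their own counts per library ran from 43 (Dlx4, posterior library 1) to 582 (Dlx1, frontal library 2). A count of 3, the floor of detection used here, corresponded to 0.0852 to 0.123 CPM, so each member was well above it in each library. For genes with 100 to 2000 counts in a pair of libraries, the variance between the 2 frontal libraries was 8.36 times that of binomial sampling, and between the 2 posterior libraries 3.31 times. Such libraries of whole tissue cannot tell fewer cells of a type from less RNA per cell. Of genes active in bone, Col1a1, which is not particular to bone, was at 967 to 1503 CPM and Runx2 at 10.7 to 16.3 CPM. Bglap, the osteocalcin gene of mature osteoblasts, lay under 1 CPM in all 4 libraries.

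Dlx1 was the only member called, higher in the frontal libraries. The other members went both ways, with Dlx6 and Dlx5 above 0 and Dlx3 and Dlx2 below 0 on the log2 scale, none of them called, and Dlx4 close to 0. Calls were made with edgeR's quasi-likelihood test at a Benjamini-Hochberg adjusted p under 0.05 over all 20947 genes tested, and 1 of 6 members was called, against 12.7% of all genes tested (6.25% higher and 6.44% lower in frontal). The share of counts at 1 annotated ribosomal RNA gene also moved with the groups, at 9.86% and 8.03% in frontal libraries 1 and 2 and 6.07% and 5.97% in posterior libraries 1 and 2, and its part in the DLX values was not tested. The count of 1 in 6 is close to that background. None of the 6 was called lower by edgeR. DESeq2, run on the same 4 libraries and so no independent check, also called Dlx1 alone. Its share of all genes called is not given here. At an unadjusted p under 0.05 there were 3 members, Dlx1 and Dlx6 higher and Dlx3 lower, beside 27.1% of all genes. In 4 of the 6 members the frontal and posterior levels did not overlap, which was also so for 57.3% of all genes tested. Frontal was above in 3 of these members (28.9% of all genes) and below in 1 (28.4% of all genes). The median log2 fold change of the 6 members was 0.24, beside 0.01 over all genes tested.

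**Figure D2:**
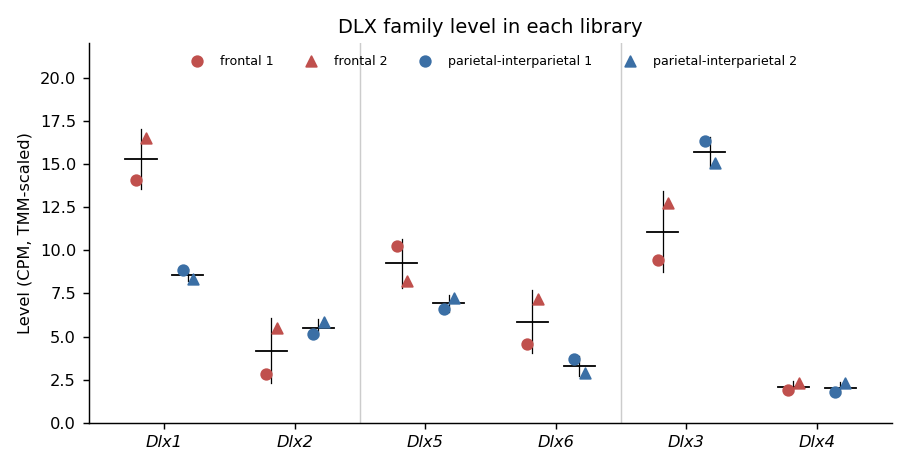
Level of each DLX gene (vertical axis, TMM-scaled CPM) in each library, red for frontal and blue for posterior (parietal-interparietal), with circles for library 1 and triangles for library 2; horizontal bars are group means and vertical lines ± 1 SD (n = 2). The 2 frontal libraries of Dlx1 lie at 14.1 and 16.5 CPM, above both posterior libraries, while for Dlx2 and Dlx4 the groups overlap.

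Dlx1 (ENSMUSG00000041911), a factor of ventral forebrain neurons and arch mesenchyme, was at 14.1 and 16.5 CPM in frontal libraries 1 and 2 and at 8.84 and 8.33 CPM in posterior libraries 1 and 2. Both frontal libraries were above both posterior ones. The means were 15.3 ± 1.75 and 8.58 ± 0.361 CPM (SD, n = 2 each), a 1.78-fold difference (log2 fold change 0.83 ± 0.16 SE, edgeR adjusted p = 0.00711). Of all genes tested, 4.11% had a smaller p than Dlx1. Leaving out posterior library 2 ended the call (adjusted p = 0.0688), as did adding the posterior libraries together as 1 sample (adjusted p = 0.0564). Across all alternatives the adjusted p ran from 5.17e-08 to 0.0688.

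Dlx2 (ENSMUSG00000023391), its neighbour and partner in the ventral forebrain and upper jaw, was at 2.85 and 5.51 CPM in frontal libraries 1 and 2 and at 5.16 and 5.86 CPM in posterior libraries 1 and 2. Frontal library 1 was the lowest of the 4, and frontal library 2 lay among the posterior values. The frontal libraries differed 1.93-fold from each other, and the group difference of −0.39 ± 0.31 log2 units was not called (edgeR adjusted p = 0.463). Without frontal library 2 Dlx2 was called lower at −0.96 log2 units, and without frontal library 1 the difference was 0.0005.

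Dlx5 (ENSMUSG00000029755), an activator of osteoblast genes and a determinant of the lower jaw, was at 10.3 and 8.24 CPM in frontal libraries 1 and 2 and at 6.59 and 7.26 CPM in posterior libraries 1 and 2. The groups did not overlap, with frontal the higher. The log2 fold change of 0.41 ± 0.19 was not called (edgeR adjusted p = 0.193), and it was called only without frontal library 2, at 0.56.

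Dlx6 (ENSMUSG00000029754), which shares enhancers and jaw functions with Dlx5, was at 4.59 and 7.16 CPM in frontal libraries 1 and 2 and at 3.72 and 2.91 CPM in posterior libraries 1 and 2. Here too both frontal libraries were the higher ones, but they were 1.56-fold apart from each other. The log2 fold change of 0.83 ± 0.29 was about as large as that of Dlx1 and had a larger error, and it was not called (edgeR adjusted p = 0.0872). A call for Dlx6 was gained by leaving out frontal library 1 (1.11) or the filter on low counts (0.84).

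Dlx3 (ENSMUSG00000001510), a factor of epidermis, hair, teeth and bone, was at 9.42 and 12.8 CPM in frontal libraries 1 and 2 and at 16.3 and 15.1 CPM in posterior libraries 1 and 2. Both frontal libraries were below both posterior ones. The log2 fold change of −0.50 ± 0.17 was not called (edgeR adjusted p = 0.0852). Dlx3 was called lower without frontal library 2 (−0.74) and with no filter on low counts (−0.49).

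Dlx4 (ENSMUSG00000020871), the member with the lowest counts, was at 1.88 and 2.33 CPM in frontal libraries 1 and 2 and at 1.76 and 2.29 CPM in posterior libraries 1 and 2. The groups overlapped and the log2 fold change was 0.06 ± 0.36 (edgeR adjusted p = 0.944). The sign of that value changed without frontal library 2 (−0.12) and without posterior library 1 (−0.12).

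**Figure D3:**
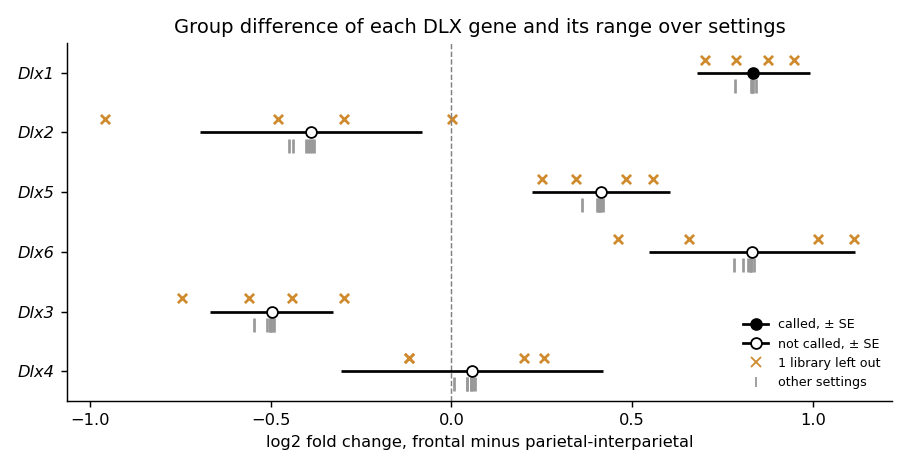
log2 fold change of each DLX gene, frontal minus posterior (horizontal axis), with circles and lines for the value ± SE, filled where called, crosses for the fits with 1 library left out and grey ticks for the other settings. Dlx1 stays between 0.70 and 0.95 over all of them, whereas Dlx2 runs from −0.96 to 0.0005 when 1 library is left out.

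Levels of different members were compared per kb of annotated exon sequence, since longer transcripts collect more counts. In the frontal libraries Dlx3 was highest at 4.25 ± 0.903 CPM per kb and Dlx5 next at 4.09 ± 0.632, and their ranges overlapped. Dlx1 followed at 2.83 ± 0.325 CPM per kb and Dlx6 at 2.47 ± 0.764, also with overlapping ranges, then Dlx2 at 1.46 ± 0.658 and Dlx4 at 0.643 ± 0.0976 (SD, n = 2 each). In the posterior libraries Dlx3 was at 6.02 ± 0.341 CPM per kb, above Dlx5 at 3.06 ± 0.210 without overlap. Dlx2 at 1.93 ± 0.174 CPM per kb was there above Dlx1 at 1.59 ± 0.0669, the reverse of the frontal order, and the ranges of Dlx1 and Dlx6 (1.40 ± 0.242) overlapped. Dlx4 was lowest in both groups. The exon length of Dlx1 (5396 bases) includes several overlapping isoforms, which lowers its value on this scale. In counts Dlx1 was above Dlx2 in every library, at 1.71 and 1.42 counts per count of Dlx2 in posterior libraries 1 and 2. The posterior order of Dlx1 and Dlx2 per kb thus depends on the exon lengths used.

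As a share of all DLX counts, Dlx1 made up 32.6% (95% Wilson interval 30.1 to 35.3) and 31.5% (29.4 to 33.6) in frontal libraries 1 and 2, and 20.8% (18.5 to 23.4) and 19.96% (17.7 to 22.4) in the posterior libraries. Dlx3 made up 21.9% (19.7 to 24.3) and 24.3% (22.4 to 26.3) in the frontal libraries, and 38.5% (35.6 to 41.5) and 36.1% (33.4 to 39.0) in the posterior libraries. The leading member by counts was thus Dlx1 in both frontal libraries and Dlx3 in both posterior libraries. These intervals treat every count as independent and cover counting error only. Because of the excess of even values, they were recomputed with all counts halved, an alternative added after the data were seen. Dlx1 then had intervals of 29 to 36.4% and 28.5 to 34.5% in frontal libraries 1 and 2, and 17.5 to 24.5% and 16.8 to 23.4% in posterior libraries 1 and 2, and those of the groups still did not overlap. Those of Dlx3 were 18.9 to 25.4% and 21.7 to 27.2% in the frontal and 34.4 to 42.7% and 32.2 to 40.1% in the posterior libraries. Halving does not cover the spread between libraries of a group. For genes with 100 to 2000 counts that spread was 8.36 (frontal) and 3.31 (posterior) times binomial sampling. Intervals that do not overlap are therefore no test of a group difference. The 6 genes together came to 43.1 and 52.5 CPM in the frontal and 42.4 and 41.7 CPM in the posterior libraries.

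The 3 pairs were then compared as pairs. Dlx5 and Dlx6 together were at 14.9 and 15.4 CPM in the frontal libraries and at 10.3 and 10.2 CPM in the posterior libraries, a log2 difference of 0.56, with a smaller spread than either gene alone. Dlx1 and Dlx2 together were at 16.9 and 22.04 CPM against 14.0 and 14.2 CPM, a log2 difference of 0.47. Dlx3 and Dlx4 together were at 11.3 and 15.1 CPM against 18.1 and 17.4 CPM, a log2 difference of −0.43. In each of the 3 sums the groups did not overlap, which among single genes was so for 57.3% of all tested. The exact two-sided permutation p was 0.333 for each sum, the smallest that 2 libraries against 2 allow (0.333 after adjustment over the 3 pairs).

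Within a pair, the ratio of the members differed most between the groups for Dlx1 and Dlx2. There were 4.93 and 3 counts of Dlx1 per count of Dlx2 in frontal libraries 1 and 2, and 1.71 and 1.42 in posterior libraries 1 and 2. The frontal ratios were both above the posterior ones, with a difference of 1.30 log2 units (means 1.94 ± 0.503 and 0.64 ± 0.190, n = 2 each). For Dlx3 over Dlx4 the ratios were 5.02 and 5.48 in the frontal and 9.28 and 6.60 in the posterior libraries, a log2 difference of −0.57 without overlap. For Dlx5 over Dlx6 they were 2.23 and 1.15 against 1.77 and 2.49, and the groups overlapped. The exact two-sided permutation p was 0.333 for the first and second of these and 0.667 for Dlx5 over Dlx6 (0.5, 0.5 and 0.667 adjusted over the 3 pairs). A design of 2 against 2 cannot reach 0.05.

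**Figure D4:**
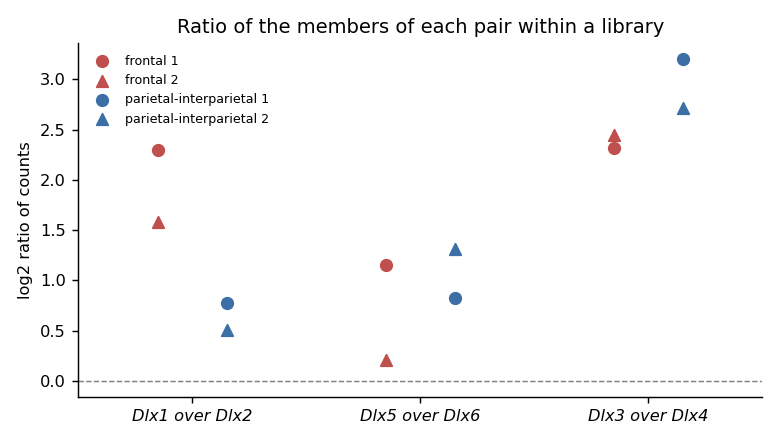
log2 ratio of the counts of the members of each pair (vertical axis, pseudocount 0.5) within each library, red for frontal, blue for posterior, circles for library 1 and triangles for library 2. For Dlx1 over Dlx2 the frontal libraries lie at 2.29 and 1.58, above 0.78 and 0.51 in the posterior libraries.

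Of the transcripts that overlap the pairs, Dlx6os1 was called. Dlx6os1 (ENSMUSG00000090063, chromosome 6, 6820189 to 6871592, minus strand) is a noncoding RNA that starts between Dlx5 and Dlx6, runs antisense across Dlx6 and is known from the ventral forebrain. It was at 5.81 and 5.82 CPM in the frontal and at 2.91 and 2.36 CPM in the posterior libraries. The frontal libraries were both the higher ones, and nearly equal (log2 fold change 1.14 ± 0.25, edgeR adjusted p = 0.0157). Leaving out posterior library 2 ended this call as well (adjusted p = 0.146), as did adding the posterior libraries together (0.0816), and over all alternatives the adjusted p ran from 0.000499 to 0.146. Dlx1as was at 1.36 and 1.28 against 0.737 and 1.29 CPM and was not called (adjusted p = 0.691). Dlx4os was at 1.57 and 2.81 against 0.532 and 1.58 CPM, with overlapping groups (adjusted p = 0.25). Dlx6os2 had 7 to 12 counts per library and did not pass the filter.

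Partners and targets of the DLX factors in the ventral forebrain went both ways. Of 25 tested genes of that list, 3 were higher, 7 lower and 15 not called, with a median of −0.18 log2 units beside 0.01 over all genes. Gad1, which encodes the larger of the GABA-synthesizing enzymes, was at 2.05 and 4.06 CPM in frontal libraries 1 and 2 and at 4.09 and 6.74 CPM in posterior libraries 1 and 2 (adjusted p = 0.173 by edgeR). Gad2, the other such enzyme, was at 3.44 and 4.37 against 4.38 and 5.16 CPM and was not called (adjusted p = 0.525). As for Dlx2, frontal library 1 held the lowest value of both.

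Isl1, a LIM homeobox factor of striatal, motor and sensory neurons, was lower in frontal libraries, at 10.2 and 12.04 against 35.7 and 35.2 CPM (log2 fold change −1.67 ± 0.13, edgeR adjusted p = 3.99e-05). Npy, a neuropeptide of interneurons, and Zfhx3, a zinc finger homeobox factor, were also lower, at −0.92 ± 0.15 and −0.58 ± 0.08 log2 units. Lhx6 and Nkx2-1, factors of the medial ganglionic eminence, had values of 0.09 and −0.43 log2 units and were not called, and Gsx2, a factor of ventral progenitors, had a count of 0 in all 4 libraries, which allows up to 0.0852 to 0.123 CPM. The counts of this list were 6 higher and 7 lower without frontal library 1, 4 higher and 10 lower without frontal library 2, 2 higher and 4 lower without posterior library 1, and 1 higher and 5 lower without posterior library 2.

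Genes that work with DLX factors in jaw patterning included several with a frontal excess. Of 20 tested genes, 6 were higher, 5 lower and 9 not called (median −0.05). Pitx1, a homeobox factor of the lower jaw and oral ectoderm, was at 14.7 and 11.6 CPM in the frontal and at 2.01 and 3.10 CPM in the posterior libraries (log2 fold change 2.35 ± 0.24, edgeR adjusted p = 0.000285). Gsc, a homeobox factor that depends on Dlx5 and Dlx6 in the lower jaw, was at 10.3 and 13.4 against 5.36 and 4.98 CPM (1.20 ± 0.20, adjusted p = 0.00359). Barx1, a homeobox factor of molar and jaw mesenchyme, was higher by 0.78 ± 0.14 log2 units and lost its call without posterior library 2.

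Ece1, the protease that activates endothelin, was lower in frontal libraries, at −0.60 ± 0.08 log2 units (edgeR adjusted p = 0.00146). The ligand Edn1 was at 2.05 and 1.82 against 2.66 and 3.501 CPM and its receptor Ednra at 25.2 and 30.5 against 30.7 and 30.4 CPM, neither of them called. The jaw list had 3 and 4 genes higher, and 1 lower each time, when posterior library 1 or 2 was left out, and 8 or 7 higher and 6 or 7 lower without frontal library 1 or 2.

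Of 16 other homeobox and helix-loop-helix factors of skull mesenchyme, 2 were higher, 7 lower and 7 not called, with a median of −0.43 log2 units. Msx1, a homeobox factor that can oppose DLX proteins at shared sites, was at 33.6 and 37.3 CPM in the frontal and at 22.01 and 20.8 CPM in the posterior libraries (0.73 ± 0.11, edgeR adjusted p = 0.00272). Its relative Msx2 was at 11.8 and 15.9 against 21.1 and 23.6 CPM and was lower (−0.69 ± 0.16, adjusted p = 0.0196). Six2, a factor of craniofacial mesenchyme, was lower by −0.94 ± 0.09 log2 units, and En1, a factor of skull mesenchyme and of the midbrain, by −1.31 ± 0.16. The skull list had 1 gene higher each time, and 4 or 2 lower, when posterior library 1 or 2 was left out, and 2 higher each time and 10 or 13 lower without frontal library 1 or 2.

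Osteoblast genes grouped as near DLX control, not all of them known targets, did not share a direction. Of 16 tested, 2 were higher, 3 lower and 11 not called (median 0.02). Ibsp, the bone sialoprotein gene and a known Dlx5 target, was higher at 81.2 and 92.4 against 40.9 and 40.7 CPM (1.09 ± 0.10, edgeR adjusted p = 0.000118). Col1a1 and Col1a2, the type I collagen genes, were lower by −0.61 ± 0.06 and −0.48 ± 0.06 log2 units. The transcription factors Runx2 and Sp7, which direct the osteoblast lineage, had values of 0.41 and −0.34 log2 units and were not called. The osteoblast list had 1 gene higher each time, and 3 or 2 lower, when posterior library 1 or 2 was left out, and 5 higher each time and 3 or 4 lower without frontal library 1 or 2.

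Of 20 genes of the epidermis, where Dlx3 acts, 1 was higher, 4 were lower and 15 were not called (median −0.23). Gata3, a zinc finger factor of hair follicles and of the inner ear, was at 6.47 and 8.78 CPM in the frontal and at 23.0 and 24.3 CPM in the posterior libraries (log2 fold change −1.63 ± 0.16, edgeR adjusted p = 0.000264). Cdh1, which encodes E-cadherin, and Krt10, a keratin of differentiating layers, were lower by −0.56 ± 0.09 and −0.61 ± 0.14 log2 units. Both calls were lost without posterior library 1 and with the posterior libraries added together, that of Krt10 also without posterior library 2. Tfap2c, an AP-2 factor of ectoderm and cortical progenitors, was higher (1.08 ± 0.14). Trp63 and Krt5, which define the basal layer, had values of −0.26 and −0.21 log2 units and were not called. The epidermal list had 1 gene higher each time, and 1 or 2 lower, when posterior library 1 or 2 was left out, and 3 or 2 higher and 8 or 9 lower without frontal library 1 or 2.

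**Figure D5:**
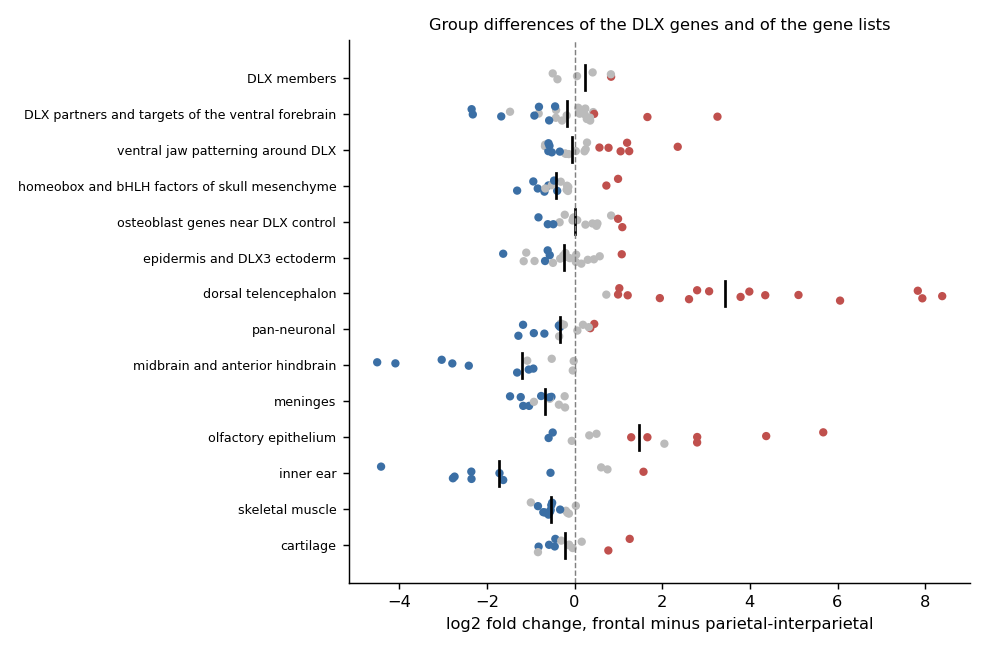
log2 fold change, frontal minus posterior (horizontal axis), of every tested gene of each list (rows), red where called higher, blue where called lower, grey where not called; black bars are list medians. The DLX genes lie between −0.50 and 0.83, inside the spread of most lists, while the dorsal telencephalon row has a median of 3.43.

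Markers of other tissues of the head moved with the groups, and their part in the DLX values was not tested. Of 16 dorsal telencephalon genes, 15 were higher in frontal libraries and 0 lower, and their summed level was 1083 and 1115 CPM against 331 and 335 CPM. Eomes, a T-box factor of cortical progenitors, was at 53.3 and 53.6 CPM against 0.246 and 0.0737 CPM. Olfactory epithelium genes were called higher in 6 and lower in 2 of 12 tested, with sums of 271 and 250 against 193 and 185 CPM. The olfactory count fell to 5 or 3 higher and 0 lower without posterior library 1 or 2, while 14 dorsal telencephalon genes were higher in each of these 2 fits. The ventral forebrain and the nasal region are known sites of DLX expression. The telencephalon list here was the dorsal one. The ventral forebrain list above had 3 genes higher and 7 lower, with a median of −0.18 log2 units.

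Lower in the frontal libraries were 8 of 12 genes of the midbrain and anterior hindbrain, 8 of 11 of the inner ear (with 1 higher), 7 of 12 of the meninges and 9 of 14 of skeletal muscle. Summed inner ear genes were at 95.5 and 94.96 CPM against 187 and 182 CPM, a tissue in which Dlx5 and Dlx6 are also active during development. Summed meningeal genes were at 489 and 516 against 849 and 844 CPM. Pan-neuronal genes were called higher in 2 and lower in 6 of 14, with sums of 1035 and 1078 against 1223 and 1243 CPM, and cartilage genes higher in 2 and lower in 4 of 12. Leaving out 1 posterior library, whichever it was, took the pan-neuronal count to 0 higher and 4 lower, the cartilage count to 1 lower and the meningeal count to 4 lower. Muscle genes called lower then numbered 4 or 5, without posterior library 1 or 2, and 13 or 11 without frontal library 1 or 2. Without frontal library 2 there were 11 meningeal genes lower, and 4 pan-neuronal genes higher and 8 lower. The inner ear (7 or 8 lower) and midbrain and hindbrain counts (6 to 10 lower) moved less. Except for Trpc2, which had no count in any library, each gene of these marker lists had a count in some library.

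The genes whose levels followed each member most closely over the 4 libraries were sought among 13899 protein-coding genes. The measure was the root mean square difference of log2 values after centring, with 0.5 added to each CPM. That offset shrinks the differences of genes at low CPM, and no other offset was tried for this measure. For Dlx1 these were Dmrta1, a DM-domain factor of the cortex (0.0282 log2 units; 2.36, 3.01, 1.43 and 1.29 CPM), and Celf3, a neuronal RNA-binding protein (0.0363 log2 units). For Dlx6 they were Pex11a, a peroxisome gene (0.043 log2 units), and Slc1a1, a neuronal glutamate transporter (0.0622 log2 units). For Dlx2 they were Palb2 and Tnip2, for Dlx3 Stmn4 and Kctd18, for Dlx4 Pcdhga5 and Rhpn2, and for Dlx5 Wdr90 and Mterf4. With 4 libraries such likeness is common: between 13 genes (Dlx6) and 779 genes (Dlx5) lay within 0.1 log2 units of a member. Among the members themselves, Dlx1 and Dlx6 were the most alike (0.156 log2 units), then Dlx2 and Dlx3 (0.184), while the neighbours Dlx1 and Dlx2 (0.65) and the combination of Dlx1 and Dlx3 (0.649) were the least alike of all 15 combinations.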

How the data were processed

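The deposited values were raw counts, 1 whole number per gene and library, which the authors made with Trim Galore 0.6.7, HISAT2 2.1.0 and featureCounts 2.0.1 on build GRCm38, per the submitters' processing notes. Their settings, annotation release and strand mode were not stated. Symbols, exon lengths and positions came from GENCODE M21, which held 55227 of the IDs. After filterByExpr (minimum count 10) and TMM scaling, edgeR 4.0.16 (R 4.3.3) fitted a model of group alone, leaving 2 residual degrees of freedom, and tests were two-sided. Each SE is the absolute log2 fold change over the root of the quasi-likelihood F statistic. Pair sums and ratios (pseudocount 0.5) were compared by exact permutation. The procedure was tested on simulated data. Named genes were the members, transcripts and neighbours at their loci, up to 4 genes of each list with the smallest p, and the 2 genes most like each member (protein-coding, mean at least 1 CPM). Some genes this rule picks are not reported here. Gad1, Gad2, Lhx6, Nkx2-1, Gsx2, Edn1, Ednra, Msx2, Runx2, Sp7, Bglap, Trp63, Krt5 and Trpc2 were named after their values were seen. Members and lists were chosen with earlier results of these data known. Alternatives were other scalings, no filter, DESeq2 1.42.0, halved counts, each library left out, the posterior libraries added together and a replicate block. Figures were drawn with matplotlib 3.10.9.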

Additional observations from a re-analysis of the deposited data

How the results depend on the processing

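Dlx1 kept its direction in all 11 alternatives and its call in 9 of them. It ended uncalled without posterior library 2 (0.79) and with the posterior libraries added together (0.83). With 1 library left out, log2 fold changes ran from 0.70 to 0.95 for Dlx1, −0.96 to 0.0005 for Dlx2, −0.74 to −0.30 for Dlx3, −0.12 to 0.26 for Dlx4, 0.25 to 0.56 for Dlx5 and 0.46 to 1.11 for Dlx6, and from −0.86 to 0.091 for the ratio of Dlx5 to Dlx6. Members called higher then numbered 0 to 2 and lower 0 to 2, while all genes called numbered 423 to 3483 higher and 442 to 3796 lower. The fits with fewer samples take their spread from the group left whole, so the lone library is assumed to vary like the others. With the posterior libraries added together, 0 members and 379 genes were called higher and 412 genes lower. With no filter, Dlx3 (−0.49) and Dlx6 (0.84) were also called, making 2 members higher and 1 lower. The replicate block gave the same numbers, with Dlx3 at −0.51 (adjusted p = 0.0357) and Dlx6 at 0.81 (adjusted p = 0.0462), but the libraries share only a number: over genes, deviations of same-numbered libraries from their group means correlated at 0.0179, and nothing in the labels pairs them. The edgeR adjusted p of Dlx1 also fell, from 0.00711 to 6.48e-05 with no filter and to 0.00063 with the block. The share of all genes called in these 2 fits is not given here, so their counts of members have no background beside them. Without scaling beyond the total count the sum of Dlx5 and Dlx6 differed by 0.51 log2 units instead of 0.56. Of the genes near the loci, the sign changed for Sdhaf3 (range −0.032 to 0.31 with 1 library left out) and Slc25a13 (−0.097 to 0.015). Of 22 other called genes at the loci, on the lists of DLX-related genes or Eomes, 17 remained called under all 11 settings tried for them, and those that did not included Barx1, Cdh1, Krt10 and Dlx6os1. Halving the counts changed no call of a member. Depth limits Dlx4 most, with 43 to 82 counts per library, and at 2 libraries a group a difference that was not called is not shown to be absent.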

Other observations

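Genes of the wider neighbourhood of the DLX pairs were read as well. Sem1, a proteasome subunit gene near Dlx5 and Dlx6, was at 385 and 506 CPM in the frontal and at 726 and 721 CPM in the posterior libraries (log2 fold change −0.70 ± 0.11, edgeR adjusted p = 0.00284). The frontal libraries were both the lower ones, the opposite direction to Dlx6os1, which was called higher. In the same neighbourhood Asns, the asparagine synthetase gene, Sdhaf3, an assembly factor of succinate dehydrogenase, and Slc25a13, a mitochondrial carrier, had values of −0.15, 0.16 and −0.04 log2 units and were not called. Near Dlx1 and Dlx2, Metap1d, a mitochondrial methionine aminopeptidase gene, and Itga6, an integrin gene, had values of 0.34 and 0.21 log2 units, and near Dlx3 and Dlx4 the acetyltransferase gene Kat7 had −0.16, none of them called.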
